A study of Mus musculus with 8 samples.

Results

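The regions described here are the 790 best-ranked OTX2 binding peaks that only the third of 3 OTX2 chromatin immunoprecipitation (ChIP-seq) experiments found. They were chosen by 2 measured values, rank and overlap, from the 22325 peaks of OTX2 replicate 3. A peak had to lie in the top 10% of that list by the authors' rank (ranks 1 to 2232), and it had to share no base with any peak of OTX2 replicates 1 and 2 or of the input and IgG control lists. All 8 lists together held 26317 peaks. The 790 peaks are called unshared peaks below, and the 1432 peaks of the same top 10% that overlapped OTX2 replicate 1 or 2 and no control peak are called shared peaks. The other 10 peaks of the top 10% overlapped a control peak, 9 of them also an OTX2 peak of replicate 1 or 2.

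The tissue was the basal ganglia and septum of wildtype CD-1 mouse embryos at E12.5, and each sample combined tissue of several embryos. The 3 kinds of library compared were chromatin precipitated with an antibody to OTX2 (3 libraries), input chromatin without antibody (3) and chromatin precipitated with normal goat IgG (2, none in the third experiment). All came from the same tissue, strain, genotype and stage. The labels name no genetic change or treatment. Read totals are not part of the peak lists, so the sequencing depth is unknown.

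OTX2 is a DNA-binding protein of the homeodomain class, best known for its roles in forming the forebrain and midbrain and in the eye. The basal ganglia arise from the ganglionic eminences, swellings of the ventral forebrain whose progenitors produce striatal and pallidal neurons and migrating cortical interneurons, and the septum lies medial to them. In ChIP-seq, DNA crosslinked to a factor is pulled down and sequenced, and a peak caller reports places where reads pile up. A peak is therefore an interval around a bound site and not the site itself, and bound sites can lie far from the genes they act on. Genes near the peaks and the DNA sequences under them were not analysed here, because the files use the mouse build mm9 and the gene and promoter tables at hand describe GRCm38.

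The unshared peaks sat mostly towards the end of the top 10%. Rank and overlap chose them, so their distribution along the list is a description. Over the whole list of replicate 3, 91.1% of peaks overlapped no other list, and within the top 10% 35.4% did. The best-ranked unshared peak was number 207, the median rank was 1639.5 (interquartile range 1267 to 1965) and the last was 2231. In 10 consecutive bins of 223 or 224 ranks the number of unshared peaks was 1, 7, 21, 46, 63, 97, 117, 128, 140 and 170. As a percentage of the bin this ran from 0.446% (95% interval 0.0113 to 2.46%) to 76.2% (70.1 to 81.7%). Intervals on percentages are exact Clopper-Pearson intervals and cover counting error only, since neighbouring peaks of 1 library are not replicates. In the next 10% (ranks 2233 to 4464) 86.2% of peaks overlapped no other list.

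**Figure D1:**
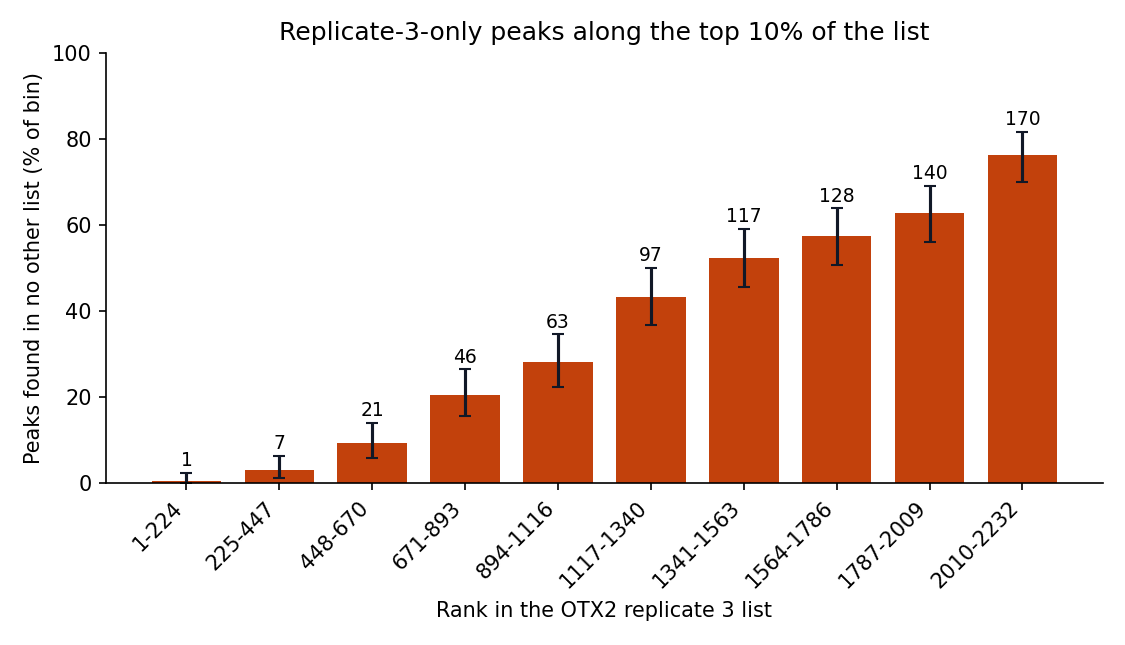
Percentage of OTX2 replicate 3 peaks found in no other list (y axis) in 10 bins of rank along the top 10% of the list (x axis). Bars give the percentage, whiskers the exact 95% interval and numbers above the bars the count of peaks, which rises from 1 in the first bin to 170 in the last.

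In the bins where unshared peaks were common, the shared peaks matched lower-ranked peaks of the other lists. In the first bin, 222 shared peaks overlapped replicate 1, at a median rank of 142.5 among its 1848 peaks. In the last bin 41 did, at a median rank of 1137. For replicate 2, with 1298 peaks, the median rank was 131 over 219 shared peaks in the first bin and 1002 over 22 in the last. Shared peaks found in both replicates fell from 218 in the first bin to 10 in the last. The number of matches falls wherever unshared peaks are many, since each bin is made of both kinds, but the ranks of the matches within replicates 1 and 2 were not used to choose the peaks.

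All unshared peaks come from 1 library, so no replicate of them exists and no test over samples was possible. The track names of the third experiment differ from the others by a tag that includes the words score and pe05, which the sources used here do not explain. The processing of the third experiment and the absence of a peak from the other 2 experiments cannot be told apart. The count also rested on the library with the longer of the short lists: when replicate 1 did not leave peaks out, 1238 peaks qualified instead of 790, and without replicate 2 1014 did.

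The 10 best-ranked unshared peaks lay on 9 chromosomes and were between 943 and 1959 bp wide. The first, at chr16:44660846-44662087 (mm9), was ranked 207 and 1242 bp wide, and 9 other replicate 3 peaks lay within 50 kb of it. Its nearest OTX2 peak in the other experiments was 34.2 kb away and ranked 1838 in replicate 1, close to the end of that list. The second, at chr11:86921586-86923544, was ranked 322 and lay 850 kb from a replicate 1 peak. The third, at chr14:12792588-12794007, was ranked 333 and lay 84.5 kb from a replicate 1 peak. None of these 3 leading peaks adjoined a peak of the other experiments.

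The next ones varied just as widely in their surroundings. The peak at chr5:85277007-85278575 (rank 378) lay 157 kb from a replicate 1 peak ranked 134. The peak at chr16:25792462-25793412 (rank 380) was alone, with no other replicate 3 peak within 50 kb and the nearest OTX2 peak of the other experiments 343 kb away. The peak at chr18:54987334-54989204 (rank 386) had 4 replicate 3 peaks within 50 kb, and the nearest OTX2 peak of another experiment, 156 kb away, was ranked 34 in replicate 2. Of the 10, this was the only one whose nearest outside neighbour came from replicate 2.

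Only 1 of the 10 had a shared peak within 10 kb. The peak at chr10:42310320-42312148 (rank 402) lay 9.59 kb from a shared peak and 11.99 kb from its nearest replicate 1 peak, with 6 replicate 3 peaks within 50 kb. The peak at chr4:115634977-115636269 (rank 442) was at the other extreme, 4369 kb from any replicate 1 or 2 peak and 53.0 kb from the nearest replicate 3 peak. The last 2 were at chr3:89410902-89411947 (rank 477), 381 kb from a replicate 1 peak, and at chr9:29322015-29322957 (rank 486), 297 kb from one. Together 2 of the 10 had an OTX2 peak of replicate 1 or 2 within 50 kb and 7 had none within 100 kb.

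Ranks ran on without a gap across the threshold, but peak widths changed close to it, as they also did at other places in the list. The last 5 unshared peaks inside it (ranks 2227 to 2231) were 859 to 2150 bp wide, with a median of 975 bp. The narrowest of these was at rank 2230 and the widest at rank 2231. The first 5 of the same kind outside it (ranks 2233 to 2240) were 1332 to 2998 bp wide, with a median of 1512 bp. Distances to replicates 1 and 2 ranged from 2.385 kb, at chr8:10924323-10926472 (rank 2231), to 5315 kb, at chr14:38062280-38063267 (rank 2229), inside the threshold. Outside it they ranged from 13.25 kb, at chr11:80317161-80318592 (rank 2238), to 1071 kb, at chr2:162238575-162240086 (rank 2235). Both sides held near and remote peaks.

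As chosen, unshared peaks were narrower than shared peaks, an order that depended on how overlap was defined. Their median width was 1207 bp (95% interval of the median 1176 to 1233 bp, interquartile range 1017 to 1514 bp, n = 790), against 1459.5 bp (1423 to 1488 bp) for shared peaks. Part of that gap followed rank, since shared peaks were better ranked. At ranks 1117 to 2232 the medians were 1181 bp (1155 to 1215 bp) for 652 unshared and 1316 bp (1272 to 1351 bp) for 458 shared peaks, whose median ranks there were 1757 and 1562.5. At ranks 1 to 1116 they were 1336.5 bp (1233 to 1406 bp) for 138 unshared and 1543.5 bp (1503 to 1588 bp) for 974 shared peaks. The median was lower for unshared peaks in 8 of the 10 rank bins. Shared peaks held in both other replicates were the widest, with a median of 1595.5 bp, while those held in replicate 1 alone (1321 bp) or replicate 2 alone (1282 bp) were nearer to the unshared ones.

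**Figure D2:**
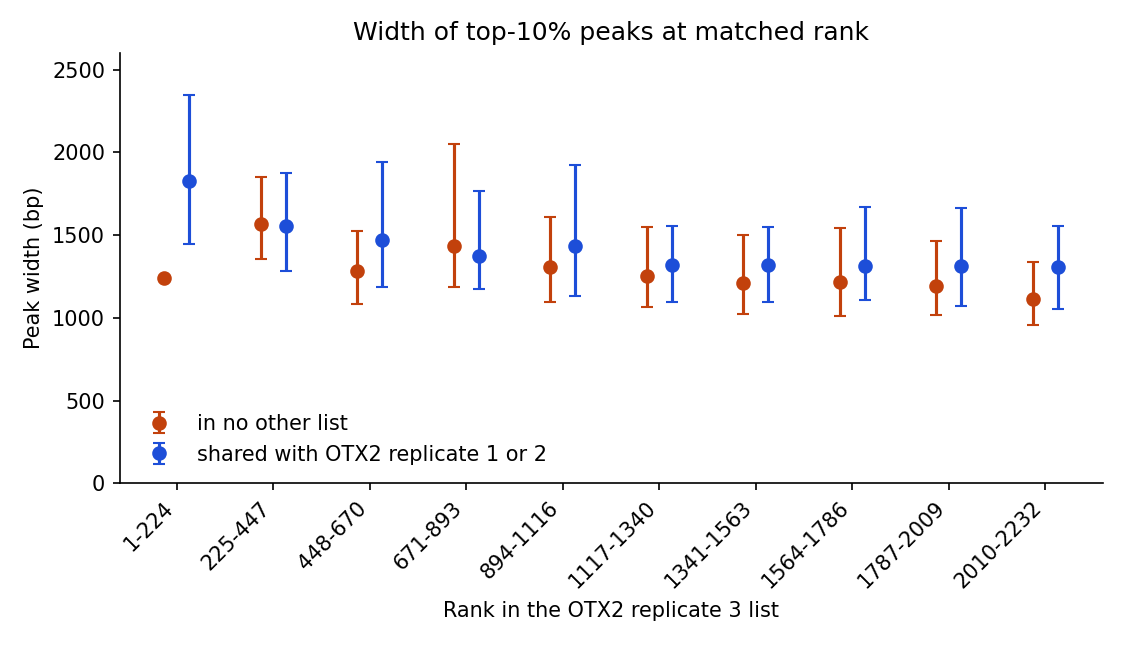
Peak width in bp (y axis) of unshared (orange) and shared (blue) peaks in 10 bins of rank (x axis). Points are medians and bars interquartile ranges, and the first bin has 1 unshared peak. The unshared median is the lower one in all bins but ranks 225 to 447 and 671 to 893.

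A wider peak can meet a peak of another list more readily, and the part of this in the width difference was not tested. The lists themselves differed in width, with a median of 827 bp and a minimum of 303 bp in OTX2 replicate 3, medians of 191 and 182 bp in OTX2 replicates 1 and 2, and a median of 143 bp in input replicate 3, whose track name bears the same tag. When every peak was reduced to 200 bp at its centre, 1203 peaks of the top 10% were unshared, and their median deposited width was 1443 bp (1403 to 1496 bp). The 1026 peaks that were then shared had a median of 1300 bp (1275 to 1325 bp), so the difference of -252.5 bp, unshared minus shared, became 143 bp. Of the 1203, 413 overlapped replicate 1 or 2 at full width. Wide peaks matched off their centre count as unshared in this setting by its construction. How far the overlap rule shaped the difference as chosen was not tested. Unshared peaks spanned 662 to 9608 bp and covered 1096 kb in all. Of the 790, 24 exceeded 3 kb, against 93 of the 1432 shared peaks and 45 of the 1923 next-10% peaks found in no other list.

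The widest unshared peaks were not the best-ranked ones. The widest, at chr16:43502719-43512326, was 9608 bp and ranked 1670, and the next, at chr12:50475553-50485084, was 9532 bp and ranked 959. The third, at chr16:77399920-77406502, was 6583 bp and ranked 1476. The narrowest were 662 bp at chr17:67106333-67106994 (rank 1597), 662 bp at chr2:148089796-148090457 (rank 1964) and 663 bp at chr2:153318100-153318762 (rank 1176). Across the 790 peaks the Spearman correlation between rank and width was -0.18, a description over peaks of 1 library. A single correlation does not describe shorter stretches of the list, where width could change abruptly. Width went from 852 bp at rank 1735 to 2204 bp at rank 1736, and from 816 bp at rank 2145 to 2857 bp at rank 2146. The change close to the threshold was of the same kind, from 859 bp at rank 2230 to 2150 bp at rank 2231.

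Unshared peaks lay nearer to OTX2 peaks of the other experiments than the lower-ranked peaks found only in replicate 3 did as a whole. The median distance, edge to edge, was 196 kb (interquartile range 58.7 to 625 kb). A replicate 1 or 2 peak lay within 10 kb of 54 unshared peaks (6.84%, 5.18 to 8.82%), against 4.12% of all replicate 3 peaks found in no other list. Within 50 kb it was 181 (22.9%, 20.0 to 26.0%), against 16.4%, and within 100 kb 278 (35.2%, 31.9 to 38.6%), against 26.6%. For the next 10% it was 5.62% (4.63 to 6.74%) within 10 kb and 32.1% (30.0 to 34.2%) within 100 kb. Both intervals overlap those of the unshared peaks. With replicate 1 left out both as a filter and as a target, 3.96% of the qualifying peaks had a replicate 2 peak within 10 kb.

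Further down the list the percentages were lower, though not at every step. Within 50 kb the percentage was 20.7% (19.0 to 22.6%) in the next 10%, an interval that overlaps that of the unshared peaks, and 13.0% (11.6 to 14.4%) in the last 10%, one that does not. From the fifth to the ninth of the 10% groups it stayed between 14.9% and 15.7%. Within 5 kb the next 10% was above the unshared peaks, with 3.22% against 2.78%. Median distances were 233 kb in the next 10% and 338 kb in the last. For shared peaks, measured to the next replicate 1 or 2 peak that they did not themselves overlap, the median was 156 kb and the percentage within 50 kb 28.6% (26.2 to 31.0%). At ranks 1117 to 2232 these percentages were 21.3% (18.2 to 24.7%) for unshared and 26.4% (22.4 to 30.7%) for shared peaks, intervals that overlap. At ranks 1 to 1116 they were 30.4% (22.9 to 38.8%) for 138 unshared and 29.6% (26.7 to 32.5%) for 974 shared peaks. Taken whole, unshared peaks stood between shared peaks and the low end of the list, but they were not below shared peaks at ranks 1 to 1116. They were close to the 10% of the list that followed them.

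**Figure D3:**
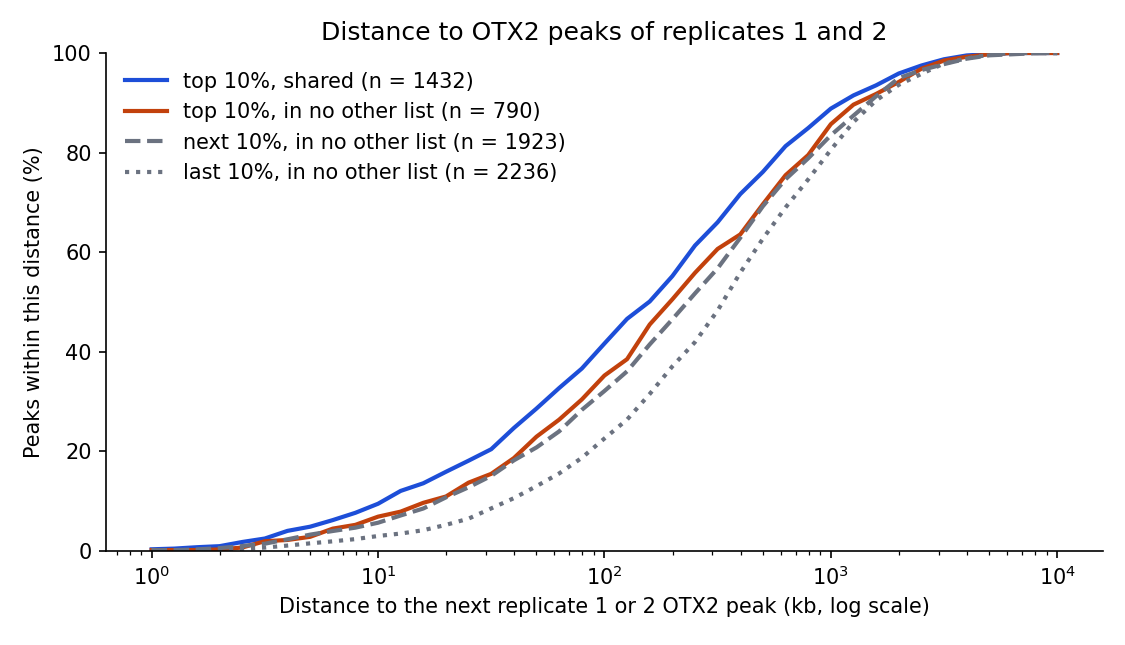
Cumulative percentage of OTX2 replicate 3 peaks (y axis) with a replicate 1 or 2 OTX2 peak within the distance on the x axis (kb, log scale), leaving out peaks that they overlap. From 5 kb on, the curve of the 790 unshared peaks runs between that of the 1432 shared peaks and that of the 2236 peaks of the last 10%, with 22.9%, 28.6% and 13.0% within 50 kb. A further curve, of the 1923 peaks of the next 10% found in no other list, runs close to that of the unshared peaks, with 20.7% within 50 kb.

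Near misses, where an overlap failed by a small distance, were rare. Below 1 kb few were possible. Replicate 3 peaks lay at least 1000 bp apart, and 89.6% of replicate 1 and 2 peaks were overlapped by one of them. Within 5 kb of a replicate 1 or 2 peak lay 22 unshared peaks (2.78%, against 1.98% of all replicate 3 peaks found in no other list), and within 1 kb a single one (0.127%, against 0.0787%). That one lay at chr7:146715781-146717246, was ranked 1933, and was 761 bp from a replicate 1 peak of rank 1545 that no replicate 3 peak overlapped. The next nearest lay at chr2:53241081-53242110 (rank 1734), 1.743 kb from a replicate 1 peak, and at chr14:49360219-49361425 (rank 2083), 2.140 kb from one ranked 335. Both had a shared peak of replicate 3 beside them, at 1.319 and 1.258 kb, so these 2 were second peaks next to a site seen in another experiment.

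Most replicate 1 and 2 peaks near unshared peaks were themselves matched in replicate 3, as were most such peaks anywhere. Of the 54 unshared peaks with a replicate 1 or 2 peak within 10 kb, 51 had one that another replicate 3 peak overlapped (94.4%), and of the 181 within 50 kb, 168 did (92.8%). Over all 3146 peaks of replicates 1 and 2, 2820 were overlapped in replicate 3 (89.6%), a share near those 2 values. The remaining 326 had no overlap in replicate 3.

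At the far end, 113 unshared peaks (14.3%) had no replicate 1 or 2 peak within 1000 kb, against 16.5% in the next 10%, 17.8% of all lower-ranked peaks found only in replicate 3 and, leaving out the peaks they overlap, 11.2% of shared peaks. The most remote was the peak on chromosome 14 of rank 2229 named above, at 5315 kb. The peak at chr9:5595559-5596602 (rank 2125) was 5065 kb away, and that at chrX:108006099-108007765 (rank 1401) 4950 kb. In bins of 1 Mb, 239 unshared peaks (30.3%, 27.1 to 33.6%) shared no bin with a replicate 1 or 2 peak, against 36.4% (35.7 to 37.0%) of the lower-ranked peaks found only in replicate 3.

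Control peaks lay no farther, in the median, from the unshared peaks than from other peaks of replicate 3. The nearest was 2354 bp away, and the median distance was 1532 kb, against 1665 kb for shared peaks and 1753 kb for the lower-ranked peaks found only in replicate 3. A control peak lay within 10 kb of 3 of the 790 unshared, 15 of the 1432 shared and 108 of the 19545 lower-ranked peaks. Within 100 kb it was 53 (6.71%, 5.07 to 8.68%), against 5.38% of shared peaks, a value inside that interval, and 4.82% of the lower-ranked peaks found only in replicate 3, a value just below it. Dropping the control filter added 1 peak to the set.

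Most unshared peaks had other peaks of replicate 3 around them. In every one of the 8 lists the smallest gap between neighbouring peaks was at least 1000 bp, so closer spacing could not be observed. The median distance to the nearest replicate 3 peak of any rank was 18.4 kb, and 606 unshared peaks (76.7%, 73.6 to 79.6%) had one within 50 kb, against 72.6% of the whole list. For shared peaks it was 82.9% (80.8 to 84.8%). For peaks found in no other list it was 75.9% (73.9 to 77.8%) in the next 10% and 67.9% (65.9 to 69.8%) in the last. At ranks 1 to 1116 it was 81.2% (73.6 to 87.3%) for unshared and 82.2% (79.7 to 84.6%) for shared peaks. At ranks 1117 to 2232 it was 75.8% (72.3 to 79.0%) and 84.3% (80.6 to 87.5%). The mean number of such neighbours was 2.08 for unshared, 2.42 for shared, 1.96 for next-10% and 1.53 for last-10% peaks.

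**Figure D4:**
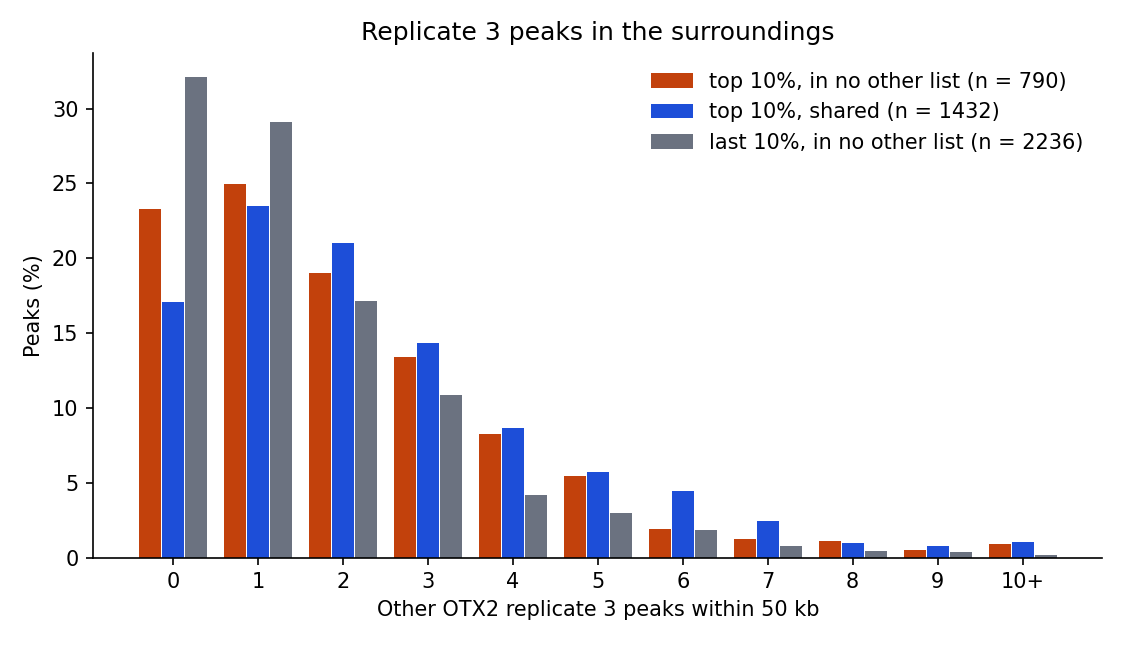
Percentage of peaks (y axis) by the number of other OTX2 replicate 3 peaks within 50 kb (x axis) for unshared, shared and last-10% peaks. Without any such neighbour were 23.3% of the 790 unshared peaks, fewer than among the 2236 last-10% peaks and more than among the 1432 shared peaks.

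Neighbours from the top 10% itself were less common. Any top-10% peak lay within 50 kb of 197 unshared peaks (24.9%, 22.0 to 28.1%) and of 427 shared peaks (29.8%, 27.5 to 32.3%), with overlapping intervals. At ranks 1 to 1116 the percentages were 31.9% (24.2 to 40.4%) and 30.6% (27.7 to 33.6%). At ranks 1117 to 2232 they were 23.5% (20.3 to 26.9%) and 28.2% (24.1 to 32.5%). Of the unshared peaks, 138 (17.5%, 14.9 to 20.3%) had a shared peak within 50 kb and 79 (10%, 7.997 to 12.3%) another unshared one. Shared peaks had an unshared peak within 50 kb at a like rate, 157 of 1432 (10.96%, 9.39 to 12.7%), and another shared one in 23.3% (21.1 to 25.5%). The percentage of unshared peaks with another unshared one rose from 10% to 16.4% when leaving out replicate 1 raised their number to 1238. The 10% and the 23.3% come from sets of unlike size and are not directly comparable. No top-10% peak lay within 1000 kb of 122 unshared peaks (15.4%).

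Linking unshared peaks less than 50 kb apart left 711 alone and gave 37 groups, 32 pairs and 5 triplets. The tightest triplet, on chromosome 18 from 54980305 to 55007287, held ranks 386, 1739 and 2104 in 27.0 kb and no peak of replicate 1 or 2. Triplets on chromosome 8 from 123000465 to 123030309 (ranks 1148, 1518 and 1735), on chromosome 10 from 19029486 to 19059619 (1417, 1648 and 2072) and on chromosome 19 from 59072974 to 59119645 (1213, 1429 and 1895) also held none. The fifth, on chromosome 4 from 153866584 to 153924873, differed: its 3 unshared peaks (ranks 913, 982 and 2037) were interspersed with 2 shared peaks and stood among 9 peaks of replicate 3 in 58.3 kb. The nearest replicate 1 or 2 peak lay only 2.801 kb outside the triplet on chromosome 8. It was 89.8 kb away on chromosome 19, 138 kb on chromosome 18 and 840 kb on chromosome 10. Unshared peaks thus formed some small groups beside or among sites seen in the other experiments and some farther off.

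On the scale of 1 Mb, 622 bins held unshared peaks, 491 of them 1 each. The highest count, 5, was reached on chromosome 18 from 54000001 to 55000000, beside 4 shared peaks and 29 replicate 3 peaks in all, and on chromosome 19 from 59000001 to 60000000, beside 3 shared and 37 in all. A count of 4 was found in 5 bins, whose first bases are chromosome 2 base 57000001, chromosome 4 base 153000001, chromosome 11 base 82000001, chromosome 14 base 66000001 and chromosome 18 base 46000001. The bin on chromosome 11 held 4 unshared and 1 shared peak with no replicate 1 peak, and that on chromosome 2 held no replicate 2 peak. The bin on chromosome 18 from 54000001 was the one of these 7 with a control peak.

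All autosomes carried unshared peaks, between 0.201 per Mb on chromosome 15 and 0.490 per Mb on chromosome 14, with a median of 0.310. Chromosome X carried 12, or 0.0746 per Mb, the lowest value of any chromosome with such a peak. Set against the pooled autosomes this was a ratio of 0.230 (95% interval 0.118 to 0.404), against 0.179 (0.104 to 0.288) for shared peaks and 0.255 (0.229 to 0.282) for the whole list of replicate 3. The intervals overlap, so the low density on chromosome X was common to peaks of replicate 3 with and without a match elsewhere. Of all replicate 3 peaks found in no other list 1.70% lay on chromosome X, and of the unshared peaks 1.52% (0.787 to 2.64%).

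**Figure D5:**
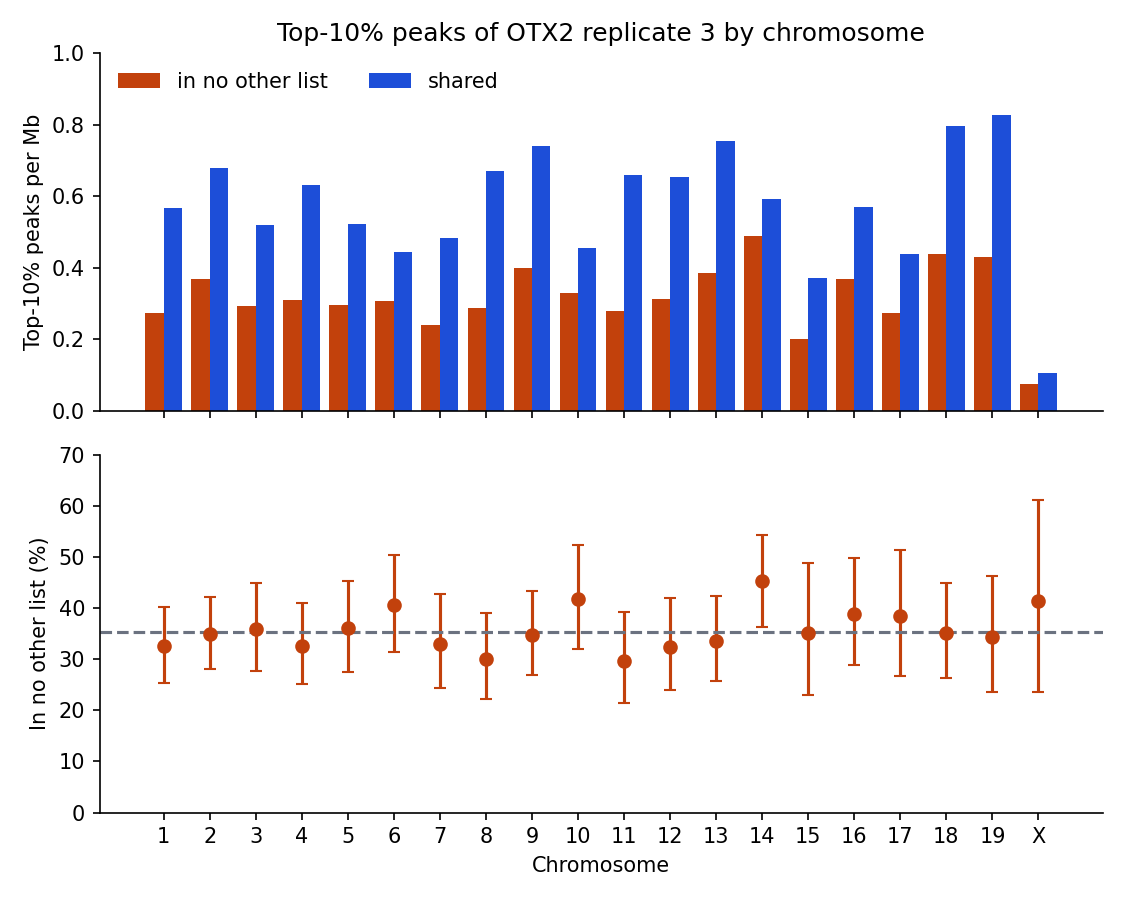
Upper panel: unshared (orange) and shared (blue) top-10% peaks per Mb (y axis) by chromosome (x axis), with the extent taken from the lowest to the highest position in any list. Lower panel: unshared peaks as a percentage of the top-10% peaks of the chromosome with exact 95% intervals, around the overall 35.4% (dashed line). Chromosome X is lowest in the upper panel for both kinds, and chromosome 14 is highest in both panels for unshared peaks.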

How the data were processed

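The authors deposited 1 peak list per library in BED form (OTX2 replicates 1 to 3, input replicates 1 to 3, IgG replicates 1 and 2), with a position and a rank within the list for each peak and no height, p-value or read total. BWA, MACS 1.4 and mm9 are named in the submitters' processing notes, without roles or parameters. The sources used here do not give the control, the threshold or the quantity ranked. Per the labels' protocols, reads were 50 bp long. Sample titles gave the groups and replicate numbers.

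Overlaps of at least 1 bp and edge-to-edge distances were taken with numpy 2.4.6, pandas 2.3.3 and scipy 1.17.1 under Python 3.11.15, tested on simulated peaks, and matched bedtools 2.31.1 for 7 of 7 lists. Coordinates are mm9, 1-based. Medians carry order-statistic 95% intervals. Regions named were the 10 best-ranked, the 5 on each side of the rank threshold, the 3 widest, narrowest, nearest to and farthest from replicates 1 and 2, and the 5 fullest 1 Mb bins with ties. Members, rules and comparisons were chosen with earlier results of these data known. Distances to genes, gene lists and motifs were planned for an mm9 annotation or genome and were not analysed here.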

Additional observations from a re-analysis of the deposited data

How the results depend on the processing

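The set depended on the rank threshold, on the list used as a filter and on whether peaks kept their full width or were cut to 200 bp. Requiring 50% of the shorter peak, leaving out peaks within 1 kb, or dropping the control filter gave 790, 789 and 791 peaks. The best 5% of the list gave 138 peaks with a median width of 1336.5 bp, 10.9% within 10 kb of a replicate 1 or 2 peak and 2.90% with another within 50 kb. The best 20% gave 2714 peaks, 1131.5 bp and 23.9% with another within 50 kb. Windows of 200 bp at peak centres gave 1203 peaks, 1443 bp, 38.5% within 10 kb and 17.9% within 50 kb of another. There the median width of unshared minus shared peaks, -252.5 bp as reported, was 143 bp, an alternative chosen after seeing the data. Of these 1203 peaks, 413 overlap replicate 1 or 2 at full width, which raises the percentage within 10 kb and the width by construction. Leaving out replicate 1 or 2 as a filter gave 1014 to 1238 peaks, 1218.5 to 1256 bp, 3.96% to 5.82% within 10 kb and 12.6% to 16.4% within 50 kb of another. Leaving out replicate 3 leaves no members. The percentage on chromosome X moved within its interval under all 8 alternatives. No paired analysis was possible because all members come from 1 library and no result comes from a test over samples. The alternatives on genes and motifs were not run. The unknown depth of the libraries limits every statement on absence from a list.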

Other observations

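Chromosome 14 was singled out after its values were seen. It held 57 unshared peaks, 45.2% (36.4 to 54.3%) of its 126 top-10% peaks, against 34.8% over all other chromosomes and 29.7% to 41.8% on the other autosomes. Unshared peaks made up 5.79% of all replicate 3 peaks on chromosome 14, while for the next 10% of the list the peaks found in no other list made up 8.74% there and 6.68% to 10.5% on the other autosomes. The 57 peaks were not a single cluster, since they fell in 36 bins of 1 Mb and in 13 of 13 windows of 10 Mb that held a top-10% peak. Their median rank was 1536 and their median width 1207 bp. With alternatives chosen after seeing the data, the difference from the other chromosomes was 10.4 percentage points as reported, 9.46 for the best 5%, 4.43 for the best 20%, 7.67 without replicate 1, 6.53 without replicate 2 and 2.60 with 200 bp windows, where chromosome 14 held place 5 among 19 autosomes. All 6 differences were positive, and the intervals of the last 4 include 0. With 19 autosomes looked at, 1 chromosome with an interval clear of the overall value is a value to look at again and not a result.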
